A study of Mus musculus with 304 samples.

Results

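Single granule cells of the mouse dentate gyrus were compared 1 day after kainate, on the injected side, with granule cells of mice that had no injection. Members were all cells of the count table whose quality control label reads Passed and whose group label is KA1_DG_ipsi (58 cells) or DG (31 cells), 89 of the 291 cells that have a column and of 304 labelled cells. The injected agent was kainic acid, a microinjection of 70 nl at 5 mM aimed at the hippocampus. The control cells carry no injection of any kind, so the needle, the solution and kainate cannot be told apart. Each library came from the cytosol of 1 cell drawn into a patch pipette (Patch-seq). The labels give no strain, sex or age, and name no animal. Each group therefore counts as 1 sample, no difference was tested, and the values describe these libraries.

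Granule cells receive the main cortical input of the hippocampus and send mossy fibres to area CA3. Kainate activates ionotropic glutamate receptors and provokes seizures, and granule cells are among the hippocampal neurons that usually survive them. In this cell type, seizures are known for raising peptide precursors such as enkephalin and neuropeptide Y, for lowering the calcium-binding protein calbindin and for preceding the sprouting of mossy fibres.

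A level is given as CPM, the standard read count scaled by all reads in genes, either in a single cell or in the summed reads of a group. Differences are log2 ratios of summed levels after adding 1 CPM, and a gene was taken as measured if, in either group, its summed level reached 5 CPM and, in either, 20% or more of cells held a read. Of 9079 measured genes, 2108 were at least 2-fold higher at day 1 (23.2%) and 1376 at least 2-fold lower (15.2%). The median ratio over all measured genes was 0.17, with 56.5% of them above 0 and 43.5% below; with that median set to 0, 1778 genes were at least 2-fold higher and 1740 lower. These shares are the background against which each count below is to be read. A gene that passed through 1 group alone had to differ, so counts over a list describe its measured members and not the whole list. The scatter of summed levels shows the wider spread on the higher side: 348 genes were at least 8-fold higher, and far fewer were at least 8-fold lower.

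**Figure D1:**
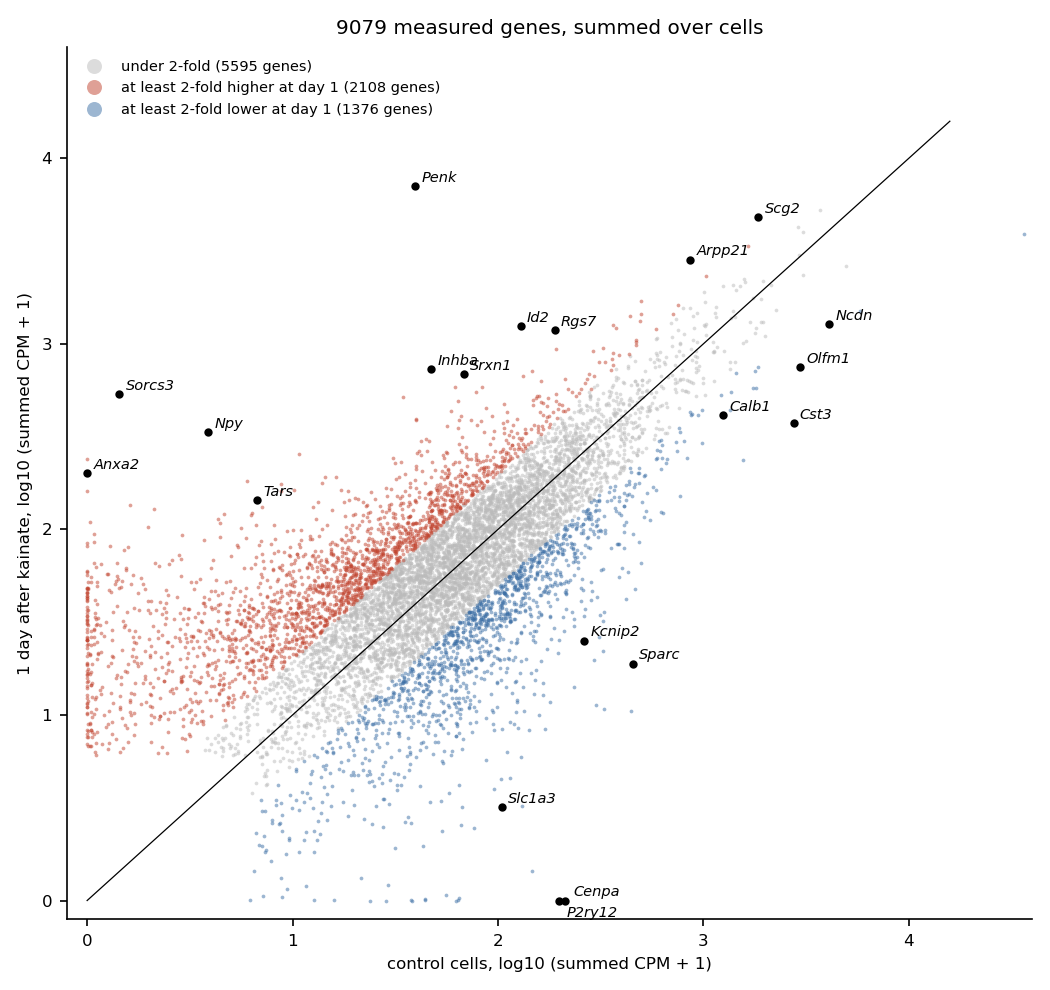
Summed level of each of 9079 measured genes in control cells (horizontal axis) and 1 day after kainate (vertical axis), both as log10 of CPM plus 1. Red points are the 2108 genes at least 2-fold higher, blue points the 1376 genes at least 2-fold lower, and labelled black points are genes described in the text. The line marks equal levels.

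The groups differed in more than kainate. Reads in genes ran from 2655957 to 27708910 per cell at day 1 (median 6834546) and from 32487 to 7923833 in controls (median 1738610). Thinned at random to 100000 reads, day 1 cells had a median of 4297 genes and 29 control cells 3616, since 2 control cells were shallower than that. Microglia markers, summed, reached at least 1000 CPM in 11 of 58 day 1 cells and 19 of 31 control cells. The 45S-region gene Rn18s-rs5 had a median of 3252 CPM at day 1 and 18854 CPM in controls, and mitochondrial-genome reads made up a median of 0.201% and 0.823%. Reads of 4 Y-linked genes stood at 20 CPM or more in 21 of the 33 day 1 cells titled K60 to K99. All 21 were among the 25 cells titled K75 to K99, and 0 among the 8 titled K60 to K74. The count was 0 of the 25 cells titled K101 to K128 and 18 of 31 control cells. The labels give no sex, and the part of this in the results was not tested. Kainate and control cells also carry different series of titles, and a batch cannot be told apart from the treatment. For these reasons the median of most lists is followed by its range over 19 alternatives, which swap the sets of cells, the scaling or the filter. Scaling that shifts all genes alike, as setting their median to 0 does, cannot move a list against all genes. Where an alternative brought a gene that stood 2-fold or more apart within 2-fold, that log2 ratio or the levels behind it are given with the setting: controls with other titles (the 9 not titled J), cells with or without Y-linked reads, microglia-rich cells left out, or GFP cells as control (granule cells given an adeno-associated virus carrying GFP and no kainate, 59 cells).

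Both groups carried markers of their granule cell label, several of them lower at day 1. Prox1, the transcription factor that marks granule cells, stood at 248 CPM at day 1 and 217 CPM in controls and had a read in 74.1% and 55.2% of thinned cells. The vesicular glutamate transporter Slc17a7 was read in 94.8% and 89.7%, and the synaptic protein gene Snap25 in 98.3% and in all 29. These 2 genes are not specific to granule cells. Of 11 measured defining markers, 7 were at least 2-fold lower at day 1 and 0 at least 2-fold higher. Endothelial markers had no measured member and oligodendrocyte markers had 2. Summed, the defining markers, Slc17a7 and Snap25 among them, stood at 3914 CPM at day 1 and 5591 CPM in controls. Markers listed for mossy cells stood at 1257 and 1877 CPM, and those for CA pyramidal cells at 799 and 915 CPM.

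Several of the genes furthest above the controls encode secreted peptides. Penk, the precursor of enkephalins (chromosome 4, 4133531 to 4138819, GRCm38), ranged from 0 to 60489 CPM over the day 1 cells with a median of 115.8, and from 0 to 619 CPM over the control cells with a median of 0. It was a gene of some cells and not of others: 20 of 58 day 1 cells stood above 1000 CPM and 12 above 10000 CPM, while 17 had no read at all. The 5 cells with the most Penk reads held 70.6% of all day 1 Penk reads. Shares of this kind go by read counts and not by CPM, so the depth of a cell also sets them. Summed, Penk stood at 7069.7 CPM at day 1 (exact Poisson interval 7062 to 7077) against 38.5 CPM in controls (36.996 to 39.98). These intervals, at 95%, cover counting error only and not the spread between cells, which is far wider here. The log2 ratio of Penk was 7.49 with all cells but 1.87 among cells with Y-linked reads and 7.10 among those without.

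Npy, the precursor of neuropeptide Y (chromosome 6, 49822710 to 49829507), ranged from 0 to 9261 CPM at day 1 (median 7.36) and from 0 to 73.4 CPM in controls (median 0). 24 of 58 day 1 cells lay above the highest control cell, and 25 had no read, so the groups overlapped at 0. After thinning, 32 of 58 day 1 cells had a Penk read, 29 an Npy read and 15 both. Pdyn, the dynorphin precursor, stood at 361 against 55.6 CPM, and the 5 cells with the most Pdyn reads held 76.6% of its day 1 reads. Nmb (neuromedin B) stood at 18.4 against 1.503 CPM, but was close to level against GFP cells (0.23). Cck, the cholecystokinin precursor, went the other way at 44.1 against 188 CPM and had a read in 34.5% against 75.9% of thinned cells. Of 40 listed peptide precursors 7 were measured, Pdyn, Npy, Cartpt and Nmb through the day 1 cells alone; 4 were at least 2-fold higher and 1 lower. The median of 2.68 ranged from 0.19, with no filter on low values, to 4.55.

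In contrast to the precursors, several secretory genes were high in nearly every day 1 cell. Scg2, the granin secretogranin II, ranged from 68.1 to 13534 CPM at day 1 (median 4415) and from 0 to 5558 CPM in controls (median 998). 55 of 58 day 1 cells exceeded the control median, and 24 exceeded the highest control cell. Cpe, the carboxypeptidase that trims peptide hormones, had medians of 1742 and 329 CPM, and 56 of 58 day 1 cells exceeded the control median. Ptprn, a protein of dense-core vesicle membranes, stood at 511 against 174 CPM, and Ica1, which acts in the making of secretory granules, at 260.3 against 65.9. Pcsk1n, an inhibitor of the prohormone convertase PC1/3, was lower, at 49.97 against 187 CPM. Ica1 came within 2-fold against GFP cells (0.34), Cpe among cells without Y-linked reads (0.86) and Scg2 among cells with them (0.76). Over the 20 measured granin and processing genes 7 were at least 2-fold higher and 4 lower. Their median of 0.27 was close to that of all genes and took either sign over the alternatives (-0.15 to 0.48).

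The Scg2 promoter holds the palindrome TGACGTCA, the cAMP response element to which CREB family factors bind. The window from 250 bases before to 50 after the start, from RefSeq on GRCm38.p6 (chr1:79439977-79440276, minus strand), is shown 5′ to 3′ because Scg2 had the largest difference in summed CPM after Penk, with the element in capitals:
Scg2: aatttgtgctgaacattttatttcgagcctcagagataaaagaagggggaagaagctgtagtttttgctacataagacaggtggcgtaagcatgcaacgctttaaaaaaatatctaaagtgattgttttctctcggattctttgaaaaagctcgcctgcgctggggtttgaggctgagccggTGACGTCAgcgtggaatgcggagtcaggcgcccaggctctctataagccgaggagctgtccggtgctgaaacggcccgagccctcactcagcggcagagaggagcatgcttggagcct
Searched on both strands, TGACGTCA occurs in the windows of 3 of the 17 measured granin and processing genes that have one (Chgb, Scg2 and Pcsk1), in 3.91% of 6902 measured genes with a window, in 4.23% of 1609 genes at least 2-fold higher and in 3.00% of 1034 at least 2-fold lower. Of 12 windows among the 15 genes chosen as highest (described next), 0 hold it. A match is a run of letters and says nothing of binding.

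Genes named as highest or lowest kept 1 sign in 3 kinds of ratio (summed, mean over cells, thinned) and in each of 4 sets of cells by title, and were detected, after thinning, in no fewer than 40% of cells on the higher side; 15 were taken at each end by the smallest of the 3 ratios. The 15 highest were Arr3, Sorcs3, Anxa2, Penk, Npy, Smad3, Sema3e, Acan, Tll1, Map3k1, Adgrl3, Inhba, Tars, Tvp23a and Igsf9b. After thinning, a day 1 cell had a read of a median of 9 of these 15 genes (0 to 14) and a control cell of a median of 1 (0 to 8). They were thus spread over most day 1 cells, with a few cells that had none; since levels chose the genes, that is a description. Against GFP cells, 14 of the 15 were still higher, and Tvp23a was not (88.9 CPM at day 1, 4.93 in controls and 111.9 with GFP, a ratio of -0.33 against GFP). Arr3, cone arrestin, had no control read, 239 CPM at day 1 (median 0.0804 CPM per cell) and 23.8 CPM with GFP. Taking 3 reads summed over all control cells as the floor, it was at least 5347-fold higher at day 1. Such floors, here and below, cover counting error only and not the spread between cells. Map3k1, a kinase that activates JNK and ERK cascades, stood at 28.6, 0.506 and 13.7 CPM. Smad3, a transducer of activin and TGF-beta signals, was nearly level with GFP cells too (101.9, 0.968 and 87.1 CPM).

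Sorcs3, a Vps10-family sorting receptor (chromosome 19, 48206025 to 48805505), ranged from 0 to 1888 CPM at day 1 (median 417) and from 0 to 12.3 CPM in controls (median 0). 47 of 58 day 1 cells exceeded the highest control cell, the least overlap among the genes described here in full. A Sorcs3 read was found in 89.7% of day 1 cells (exact binomial interval 78.8 to 96.1) and 3.23% of control cells (0.0816 to 16.7), or 82.8% and 3.45% after thinning, and GFP cells stood at 6.65 CPM. Adgrl3, a latrophilin that binds FLRT and teneurin proteins across the synapse, stood at 162 against 9.15 CPM, and Igsf9b, an adhesion molecule of inhibitory synapses, at 84.9 against 0.0744. Sema3e, a secreted guidance cue read by plexin D1, had a read in 56.9% against 6.90% of thinned cells.

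**Figure D2:**
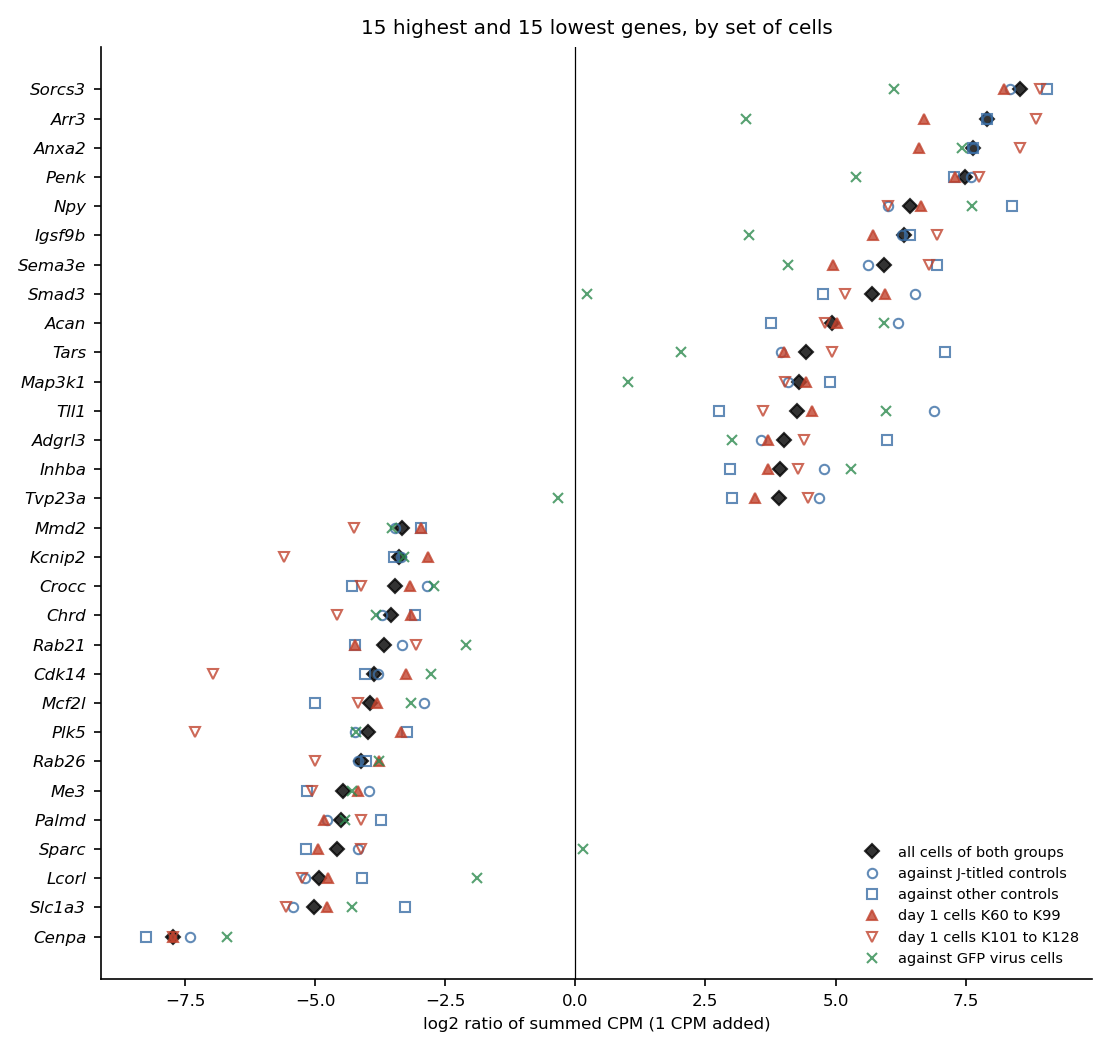
Log2 ratio of summed CPM (1 CPM added) for the 15 highest and 15 lowest genes, with all cells (black), with each set of control cells by title (blue), with each set of day 1 cells by title (red) and with GFP virus cells as control (green crosses). All blue and red points share the sign of the black one, as the rule required; among green crosses Tvp23a and Sparc lie on the other side of 0.

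Secreted growth factors gave a small group of genes that were far apart between the groups within a list that was not. Inhba, the activin A subunit, ranged from 0 to 4232 CPM at day 1 (median 351) and from 0 to 749 CPM in controls (median 0), and 18 of 58 day 1 cells exceeded the highest control cell. 15 day 1 cells and 0 control cells were above 1000 CPM. Areg, an EGF receptor ligand, stood at 46.3 against 0.283 CPM but was read in 18.97% of thinned day 1 cells, and Nell1 at 29.97 against 1.399 CPM. Fstl4, of the follistatin-like family, stood at 120.5 against 19.1 CPM (0.66 against GFP cells). Chrd (chordin), which binds and blocks BMPs, was among the 15 lowest genes at 9.43 against 121.1 CPM. In all 10 of 27 measured growth factors and antagonists were at least 2-fold higher and 4 lower (median 0.15, -0.15 to 1.67 over the alternatives).

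Of receptors on the cell surface, Sstr2, a somatostatin receptor, had, after Sorcs3 and level with Acan, the widest difference in the share of thinned cells with a read. It ranged from 0 to 2433 CPM at day 1 (median 353) and from 0 to 661 CPM in controls (median 0), with 75.9% against 10.3% of thinned cells. Itgav, the integrin alpha V subunit, was read in 70.7% against 6.90%, and 28 of 58 day 1 cells exceeded the highest control cell. Acan, the core protein of perineuronal nets, was read in 79.3% against 13.8%. In the plot of shares these genes, with Srxn1, Id2, Inhba, Spry2, Ptpn5 and Dusp3, form the upper part, and 10 genes read in fewer day 1 cells the lower one.

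**Figure D3:**
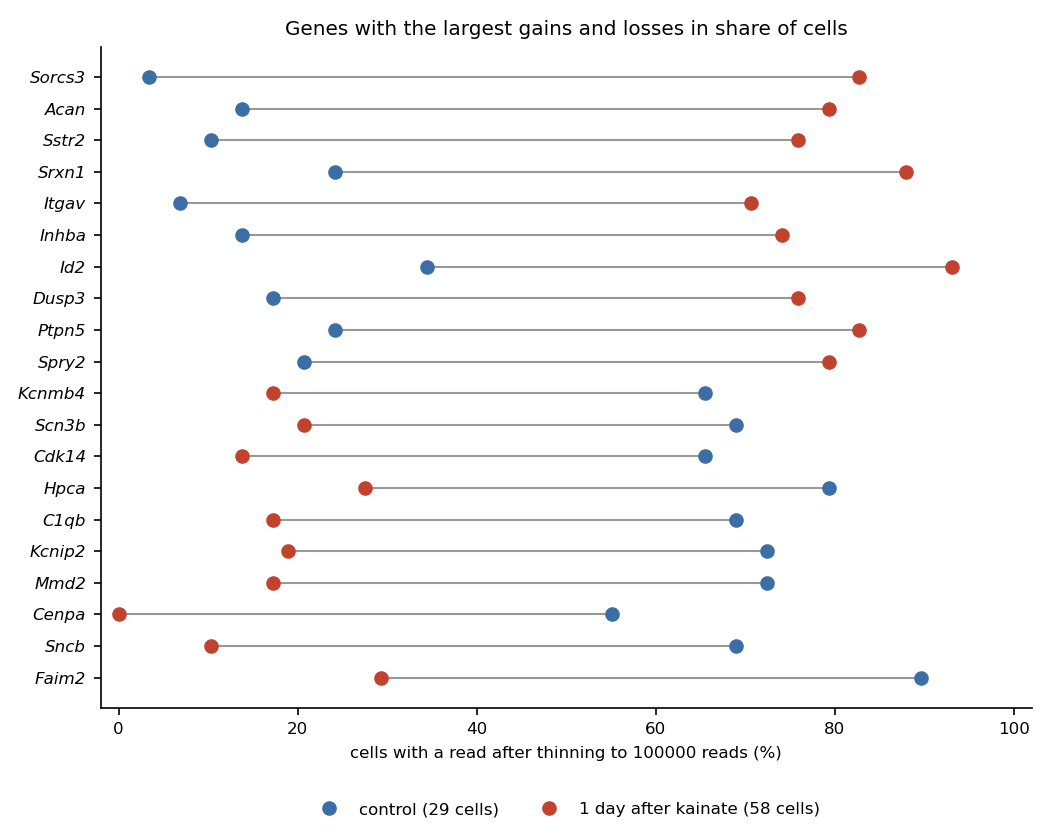
Share of cells with at least 1 read after thinning every cell to 100000 reads, for the 10 genes named as furthest above and the 10 named as furthest below the controls, in 29 control cells (blue) and 58 day 1 cells (red). Differences run from 58.6 to 79.3 percentage points among the former and from -60.3 to -48.3 points among the latter.

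Id2, the inhibitor of DNA binding that holds basic helix-loop-helix factors off DNA and is named in the study's title (chromosome 12, 25093799 to 25097140), ranged from 0 to 3025 CPM at day 1 with a median of 1212. In controls it ranged from 0 to 735 CPM with a median of 0. 37 of 58 day 1 cells stood above 1000 CPM and 0 control cells did; 41 day 1 cells exceeded the highest control cell, and 2 day 1 cells had no read. Id2 reads were less concentrated than those of Penk: the 5 cells with the most held 27.7% of its day 1 reads, a share that depth also sets. An Id2 read was found in 96.6% of day 1 cells (exact binomial interval 88.1 to 99.6) and 38.7% of control cells (21.9 to 57.8), or 93.1% and 34.5% after thinning. Summed levels were 1247 and 127.9 CPM, and 93.2 CPM in GFP cells. The log2 ratio was 3.28 and lay between 2.72 and 5.33 over 19 alternatives, the highest with microglia-rich cells left out and the lowest with cells of other quality labels added.

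Among the partners and relatives of Id2, Tcf12, an E protein that Id proteins bind, stood at 75.6 against 7.52 CPM, and Npas2, a relative of CLOCK, at 56.1 against 0.670. Mycl was lower, at 14.3 against 151 CPM, as was Neurod2 at 48.6 against 119.6, a factor of neuronal differentiation. Over 32 measured genes of the family 10 were at least 2-fold higher and 7 lower, with a median of 0.11 near that of all genes (-0.20 to 0.62). Neurod2 came within 2-fold against GFP cells (-0.76). Id1, Id3 and Id4 did not reach the level of a measured gene, at 1.64, 0 and 5.41 CPM at day 1 and 2.63, 0.0744 and 0 CPM in controls.

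Early activity genes were not alike. Npas4, a factor induced by calcium entry, was lower at day 1 (51.03 against 282 CPM), and so was Srf, the serum response factor (19.02 against 100.1). Crem, a cAMP-responsive relative of CREB, was higher (53.8 against 8.93), as were Ier3 (34.5 against 2.47) and Csrnp1 (10.7 against 0.610). Within 2-fold in at least 1 alternative were Srf and Crem against controls with other titles (-0.25 and 0.91) and Csrnp1 against GFP cells (0.69). Of 38 measured early factors, 9 were at least 2-fold higher and 10 lower, with a median of -0.41 that lay below that of all genes in all 19 alternatives (-0.94 to 0.08). Fos and Junb, early genes of strong activity, had a read in 79.3% and 93.1% of thinned control cells. Fos stood at 802 CPM at day 1, 1348 CPM in controls and 3515 CPM in GFP cells, and Junb at 532, 1213 and 2039.9 CPM. Bdnf stood at 1050.1 against 888 CPM and Arc at 1766 against 1750.3, both close to level at this time. Fos, Junb, Bdnf and Arc were chosen after their values were seen.

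Effector genes of activity were higher and lower in about the background shares. Mapk4, an atypical MAP kinase, had medians of 462 and 0.467 CPM per cell, Synpo (synaptopodin, an actin-binding protein of spines) of 174 and 31.5, and Fbxo33, an F-box protein of ubiquitin ligases, of 89.9 and 557. Rrad and Rem2, small GTPases that inhibit calcium channels, were read in fewer cells, at 104.5 against 5.61 and 66.4 against 6.18 CPM. In this list 11 of 44 genes were at least 2-fold higher and 6 lower (median 0.08, -0.09 to 0.75). Synpo came within 2-fold against controls with other titles (0.69).

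Phosphatases and inhibitors that damp MAP kinase signals held several genes read in many more day 1 cells than control cells. Ptpn5 (STEP), a striatum-enriched phosphatase of ERK and NMDA receptors, ranged from 0 to 2948 CPM at day 1 (median 370.3) and from 0 to 386 CPM in controls (median 0); 50 of 58 day 1 cells exceeded the control median. Dusp3 was read in 75.9% against 17.2% of thinned cells and Spry2, a Sprouty inhibitor of growth factor signalling, in 79.3% against 20.7%. Spry4 stood at 48.6 against 0.119 CPM and Dusp26 at 51.7 against 7.43. Rasal1, a Ras GTPase-activating protein, was lower at 13.1 against 234 CPM. Altogether 10 of 26 were at least 2-fold higher and 5 lower, with a median of 0.14 (-0.03 to 1.25). Against GFP cells Dusp3 was at 0.74 and Spry2 at 0.90, and Spry2 was at 0.77 in the scaled table.

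Channels and receptors as groups stood below the rest of the transcriptome. Potassium channel genes had a median of -0.64 with 5 of 38 at least 2-fold higher and 10 lower; sodium, calcium and HCN channel genes had -0.62 (5 and 12 of 32). Glutamate receptor genes had -0.65 (4 and 5 of 27), and GABA and glycine receptor genes -0.51 (2 and 5 of 21). In all 19 alternatives each of the 4 medians was below that of all genes, but among cells without Y-linked reads all 4 were above 0 (0.11, 0.17, 0.59 and 0.38 in that order), where the median of all genes was 0.60. Lower thus means lower than other genes of the same cells.

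**Figure D4:**
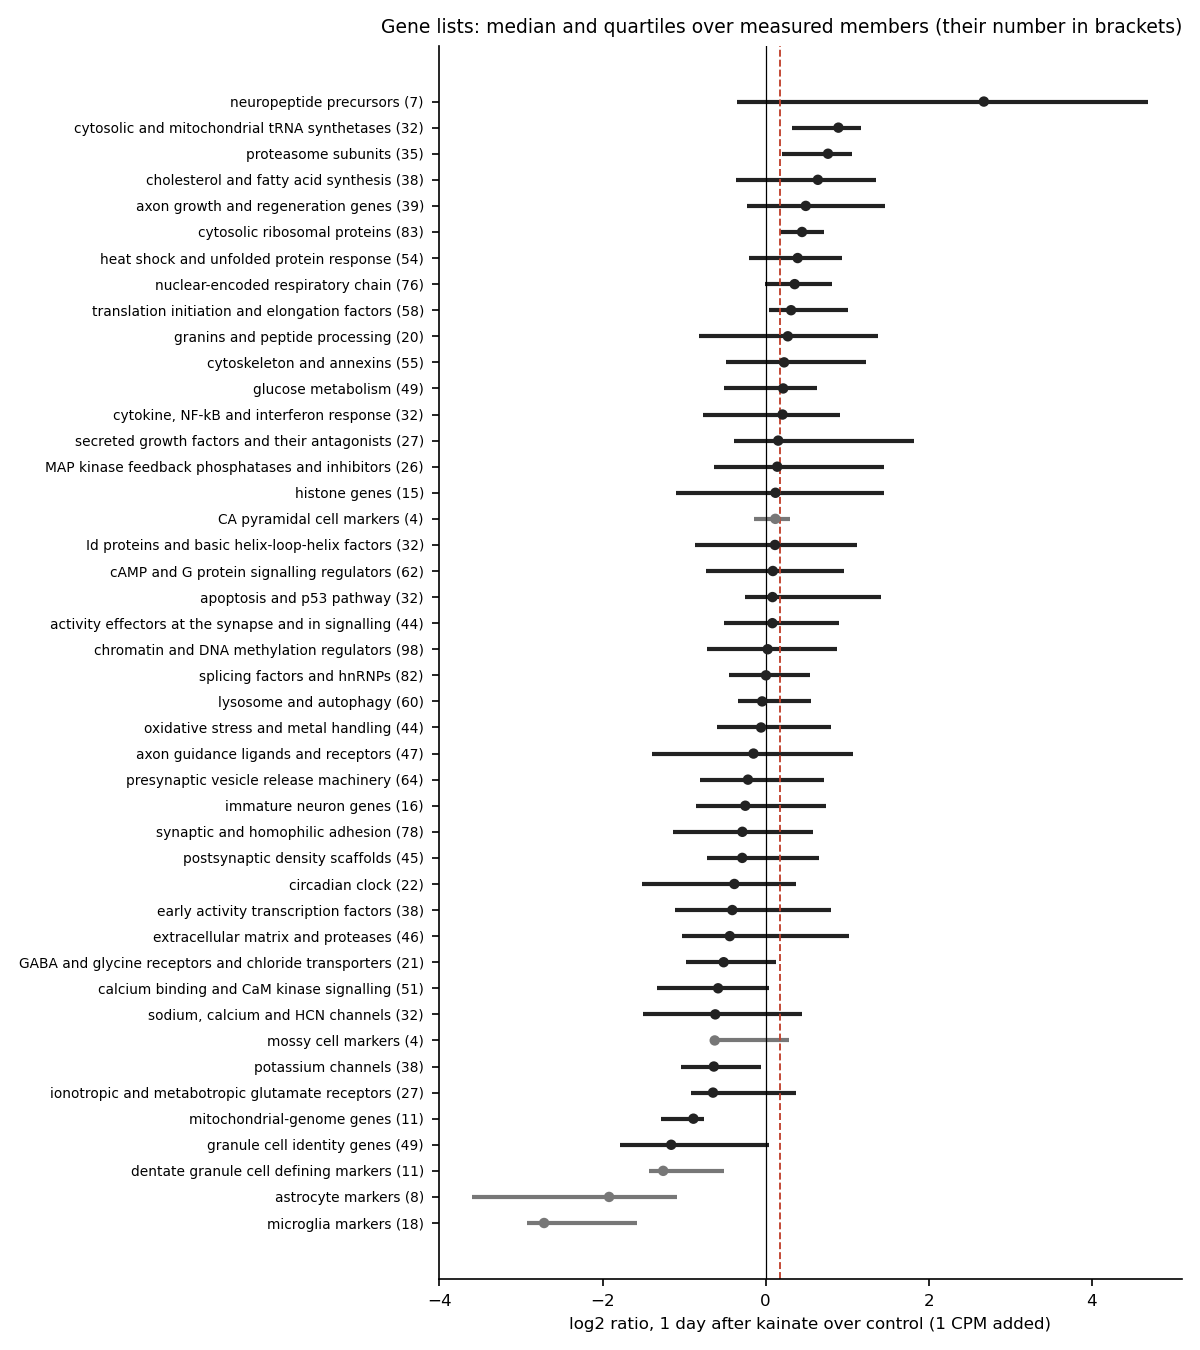
Median (point) and quartiles (bar) of the log2 ratio over the measured members of each gene list, with the number of members in brackets; grey marks lists of cell type markers. The dashed line is the median of all measured genes, 0.17. Peptide precursors lie highest, microglia and astrocyte markers lowest.

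Kcnip2, the KChIP2 subunit of A-type potassium channels (chromosome 19, 45791839 to 45816061), ranged from 0 to 318 CPM at day 1 (median 0) and from 0 to 1335 CPM in controls (median 174). 9 of 31 control cells exceeded the highest day 1 cell. Its relative Kcnip3 (KChIP3, also known as DREAM) was on the other side, with 434 against 58.3 CPM and a read in 75.9% against 20.7% of thinned cells. Kcnmb4, a subunit of BK channels, was read in 17.2% against 65.5%. Kcnk2 (TREK-1), a leak potassium channel, stood at 0.0215 against 43.4 CPM and Kcnab2 at 27.5 against 152 (-0.89 against GFP cells). Scn3b, a sodium channel subunit, was read in 20.7% against 68.97% of thinned cells, and Cacna1h, the T-type calcium channel Cav3.2, in 27.6% against 51.7%.

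Among glutamate receptors, Grm7 and Grm8, presynaptic metabotropic receptors that couple to Gi, were higher, at 366 against 77.8 and 61.7 against 0.104 CPM. Gsg1l, an auxiliary subunit of AMPA receptors, stood at 132 against 21.7 CPM. On the inhibitory side Gabra5, the alpha 5 subunit of extrasynaptic GABA-A receptors, had medians of 12.4 and 323 CPM, and Glrb stood at 74.5 against 180.3 CPM. Gsg1l and Gabra5 came within 2-fold among cells with Y-linked reads (0.42 and -0.57), and Glrb with microglia-rich cells left out (-0.40).

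Calcium handling genes were lower at day 1 as a list. Hpca (hippocalcin), a neuronal calcium sensor, had medians of 0 and 290.1 CPM per cell, and Camkv, a kinase-like protein of synapses, of 0 and 541. Calb1, the calcium buffer calbindin, ranged from 0 to 3431 CPM at day 1 (median 52.6) and from 0 to 3015 CPM in controls (median 1195), so that the ranges overlapped almost wholly while 26 of 31 control cells exceeded the day 1 median. Its ratio of -1.60 was -0.92 among cells with Y-linked reads. Atp2b4, a plasma membrane calcium pump, stood at 1.55 against 65.3 CPM and the ryanodine receptor Ryr1 at 2.78 against 56.8. Rcan2, an inhibitor of calcineurin, was higher at 51.7 against 0.387 CPM. Of 51 genes 7 were at least 2-fold higher and 17 lower, and the median of -0.58 stayed below 0 in all 19 alternatives (-0.85 to -0.39).

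Among regulators of G proteins and cAMP, Rgs7, a GTPase activator for Gi and Go in neurons, ranged from 0 to 5001 CPM at day 1 (median 1084) and from 0 to 1353 CPM in controls (median 12.7). 23 of 58 day 1 cells exceeded the highest control cell. Its relative Rgs6 stood at 76.7 against 0.506 CPM. The calcium-stimulated adenylyl cyclase Adcy1 was lower, with medians of 0 and 225 CPM, and so were 2 phosphodiesterases, Pde1a at 7.42 against 168 CPM and Pde7b at 0.0108 against 62.8. As a list these genes did not stand apart: 15 of 62 were at least 2-fold higher and 14 lower, with a median of 0.09 (-0.09 to 0.80). Adcy1 came within 2-fold among cells without Y-linked reads (-0.74).

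**Figure D5:**
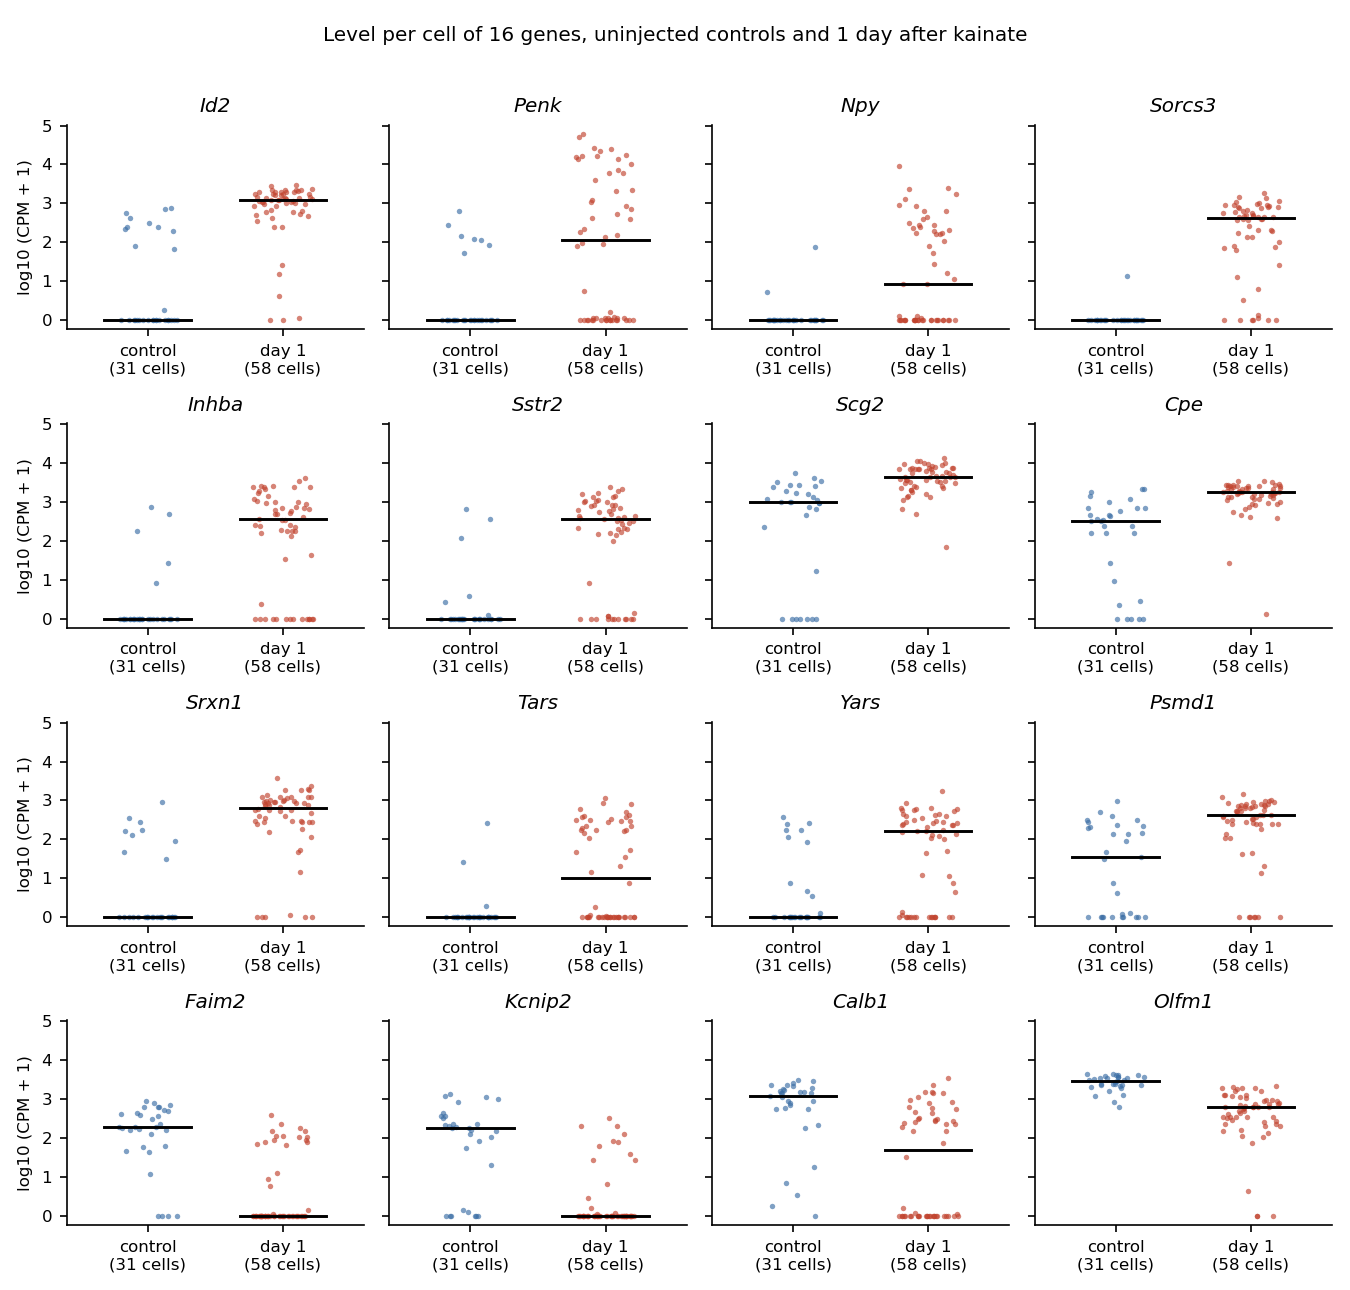
Level per cell, as log10 of CPM plus 1, of 16 genes in 31 control cells (blue) and 58 day 1 cells (red); black lines are medians and sideways scatter has no meaning. Most day 1 cells lie above the controls' median for Id2, Sorcs3, Srxn1 and Cpe, with some cells at or near 0, Penk and Npy spread from 0 to their highest values, and Faim2, Kcnip2 and Calb1 have day 1 cells at 0 beside cells within the control range.

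At the synapse the vesicle release and scaffold lists both lay a little below all genes, with medians of -0.22 (11 of 64 at least 2-fold higher, 14 lower) and -0.29 (10 and 6 of 45), below it in all 19 alternatives, though above 0 among cells without Y-linked reads (0.29 and 0.24). The scaffold median was also above 0 with microglia-rich cells left out (0.16) and against controls with other titles (0.05). Individual members differed widely. Rims1, an active zone scaffold, was read in 31.03% against 65.5% of thinned cells, and the synaptotagmin Syt3 stood at 12.1 against 115.6 CPM. Syt12 and Rab3c were higher, at 32.02 against 1.64 and 54.4 against 13.5 CPM. Shank1, a master scaffold of the postsynaptic density, stood at 264 against 40.1 CPM and was read in 98.3% against 72.4% of thinned cells, while Iqsec2 stood at 2.26 against 18.8. Rab3c and Syt3 came within 2-fold among cells with Y-linked reads (0.23 and -0.85), Rims1 against GFP cells (-0.82) and Iqsec2 with microglia-rich cells left out (-0.66). Faim2, an inhibitor of Fas-induced cell death enriched in neurons, had the widest drop in share among the genes named by share: it ranged from 0 to 389.8 CPM at day 1 (median 0) and from 0 to 915 CPM in controls (median 188), and 10 of 31 control cells exceeded the highest day 1 cell. A Faim2 read was found in 34.5% of day 1 cells (exact binomial interval 22.5 to 48.1) and 87.1% of control cells (70.2 to 96.4), or 29.3% and 89.7% after thinning. Sncb, beta-synuclein, was read in 10.3% against 68.97%.

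Adhesion and guidance genes were split, with more genes lower than higher. Of 78 adhesion genes 13 were at least 2-fold higher and 21 lower, and of 47 guidance genes 14 and 17. Both medians (-0.29 and -0.15) were above 0 among cells without Y-linked reads (0.65 and 1.17). The guidance median was also above 0 with J-titled controls (0.13), with no filter (0.03) and with microglia-rich cells left out (0.16). Cdh4 (R-cadherin) stood at 51.5 against 0.476 CPM and Lrrc4, a netrin-G ligand, at 4.48 against 52.8. Sema6b, a transmembrane semaphorin, and Efnb2, an ephrin, were lower at 10.1 against 75.7 and 3.82 against 31.5 CPM. Efna5, another ephrin, stood at 20.3 CPM at day 1, with 2 reads in all control cells.

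Genes tied to axon growth lay above all genes in all 19 alternatives (median 0.49, 0.20 to 1.02), with 13 of 39 at least 2-fold higher and 3 lower. Sox11, a transcription factor of growing neurons, ranged from 0 to 2441 CPM at day 1 (median 509.5) and from 0 to 1529.5 CPM in controls (median 0.239), and was read in 94.8% against 44.8% of thinned cells. Stat3, the transducer of gp130 cytokines, had medians of 227 and 0 CPM and stood at 4.96 CPM in GFP cells. Gap43, the growth cone protein, stood at 66.4 against 6.83 CPM but was read in 29.3% of thinned day 1 cells only. Anxa2, a calcium-dependent membrane-binding annexin, had no read in any control cell and 199.8 CPM at day 1, at least 4473-fold higher against the floor, with 35 of 58 day 1 cells having a read.

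Cytoskeletal genes known from reactive or injured cells were read in a part of the day 1 cells. Vim (vimentin) stood at 134 against 0.625 CPM, with 18 of 58 day 1 cells and 0 control cells above 100 CPM. Nefh, the heavy neurofilament chain, stood at 56.3 against 0.253 CPM. Lgals3 (galectin-3), a gene that activated microglia also express, had 95.1% of its day 1 reads in 5 cells, and 2 reads in controls. Flna, the actin crosslinker filamin A, stood at 177 against 36.4 CPM in 55.2% against 13.8% of thinned cells. The whole list of 55 had 15 genes at least 2-fold higher and 6 lower (median 0.23, 0.05 to 0.67). Flna came within 2-fold with microglia-rich cells left out (0.77).

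The matrix list lay below all genes (median -0.44, 12 of 46 at least 2-fold higher and 12 lower), and was above 0 against GFP cells (0.08) and with no filter (0.01), yet it held several of the highest genes. Timp1, an inhibitor of metalloproteases, stood at 50.8 against 0.119 CPM, Spock1 at 119.6 against 3.63, and Tll1, a tolloid metalloprotease that cleaves chordin, at 118.3 against 5.25. Sdc1, a heparan sulfate proteoglycan, stood at 58.8 CPM with no control read, at least 1316-fold higher against the floor, but among cells with Y-linked reads its log2 ratio was 0.17 against 5.90 with all cells. Olfm1, a secreted olfactomedin abundant in neurons, was among the 10 genes furthest below the controls in CPM: it ranged from 0 to 2220.0 CPM at day 1 (median 606) and from 635 to 4478 CPM in controls (median 2955), and 23 of 31 control cells exceeded the highest day 1 cell. Sparc, a matrix glycoprotein that glia make, stood at 17.9 CPM at day 1, 451 CPM in controls and 16.2 CPM in GFP cells, so against GFP it was not lower (0.14).

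Genes of protein synthesis and turnover were higher as groups, by small steps over many members. The 32 measured tRNA synthetases had a median of 0.89, with 13 at least 2-fold higher and 1 lower, and lay above all genes in all 19 alternatives (0.53 to 1.55). Tars, which charges threonine tRNA, ranged from 0 to 1159 CPM at day 1 (median 9.98) and from 0 to 265 CPM in controls (median 0), and 15 of 58 day 1 cells exceeded the highest control cell. Yars, for tyrosine, had medians of 159 and 0 CPM per cell and Cars, for cysteine, of 146 and 0. The 1 synthetase at least 2-fold lower was Lars2, for mitochondrial leucine, at 1498 against 5812 CPM; reads of ribosomal RNA are known to align to Lars2, and Rn18s-rs5 was lower at day 1 too, a link that was not tested. Asns, asparagine synthetase, a target of the amino acid response factor ATF4, stood at 409 against 92.3 CPM, and Eif4ebp1, which restrains cap-dependent translation, at 32.7 against 7.62. Eif4ebp1 and Lars2 came within 2-fold against controls with other titles (0.43 and -0.99), Yars against GFP cells (0.91) and Cars among cells without Y-linked reads (0.98).

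The windows of Asns and Tars are shown because both hold TGATGNAA, the composite C/EBP-ATF element to which ATF4 binds, in capitals (Asns chr6:7693160-7693459 and Tars chr15:11399609-11399908, both minus strand, RefSeq on GRCm38.p6, 5′ to 3′). In Tars the element lies on the opposite strand and reads TTGCATCA:
Asns: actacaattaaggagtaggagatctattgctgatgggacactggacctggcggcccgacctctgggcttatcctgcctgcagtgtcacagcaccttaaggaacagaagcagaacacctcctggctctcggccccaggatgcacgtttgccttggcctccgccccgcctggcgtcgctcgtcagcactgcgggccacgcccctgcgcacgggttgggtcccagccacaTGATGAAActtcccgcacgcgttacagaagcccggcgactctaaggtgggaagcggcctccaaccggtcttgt
Tars: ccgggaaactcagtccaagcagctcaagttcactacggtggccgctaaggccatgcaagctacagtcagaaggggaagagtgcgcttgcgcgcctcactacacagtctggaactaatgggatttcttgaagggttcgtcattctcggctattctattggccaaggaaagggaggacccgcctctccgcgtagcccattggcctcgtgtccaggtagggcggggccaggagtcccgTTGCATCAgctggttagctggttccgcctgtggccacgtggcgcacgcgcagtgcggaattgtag
Among 23 measured synthetases with a window 5 hold it, or 21.7%, against 2.46% of 6902 measured genes and 4.51% of all 27025 genes with a window. These 5 were Tars (4.42), Yars (2.57), Iars (0.93), Gars (0.57) and Aars (0.34), named for the motif. All had a log2 ratio above 0, but so had 28 of all 32 measured synthetases, so the sign does not set them apart. Over the genes at least 2-fold higher the motif was no more frequent than over measured genes (2.49%).

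Proteasome subunits had a median of 0.76, with 11 of 35 at least 2-fold higher and 0 lower (0.50 to 0.83 over the alternatives). Psmd1, a base subunit of the 19S cap, ranged from 0 to 1474 CPM at day 1 (median 409.7) and from 0 to 946 CPM in controls (median 33.5), and 49 of 58 day 1 cells exceeded the control median. Psma6, of the core ring, had medians of 240.3 and 0 CPM. Translation factors had a median of 0.31 (16 of 58 at least 2-fold higher and 3 lower, 0.14 to 0.86) and ribosomal proteins 0.45 (9 and 1 of 83, 0.24 to 0.92). Among cells without Y-linked reads, the proteasome (0.50) and ribosomal protein (0.24) medians lay below that of all genes (0.60). Ribosomal protein genes have near-identical pseudogene copies, so their counts are uncertain. Few of them passed 2-fold, yet 66 of 83 were above 0. Eif3c stood at 382 against 109.2 CPM, Rps7 at 192 against 55.4 and Rpl15 at 180.2 against 64.4. Against GFP cells these 3 and Psma6 were within 2-fold, at 0.20, 0.76, 0.70 and 0.52 in that order.

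Stress genes were split, with a few members far higher at day 1. Srxn1, sulfiredoxin, which repairs oxidised peroxiredoxins, ranged from 0 to 3699.5 CPM at day 1 (median 654) and from 0 to 929 CPM in controls (median 0). 87.9% against 24.1% of thinned cells had a read, and 19 day 1 cells exceeded the highest control cell. Hmox1, haem oxygenase 1, stood at 27.9 against 0.0744 CPM. Gpx1 and Gstm1, antioxidant enzymes, were lower at 93.4 against 294 and 19.4 against 58.3 CPM. Gpx1 was level among cells with Y-linked reads (-0.05) and Gstm1 among those without (-0.09). The list had a median of -0.06 (9 of 44 at least 2-fold higher, 7 lower, -0.23 to 0.28). Of heat shock and unfolded protein genes 12 of 54 were at least 2-fold higher and 5 lower (median 0.39, 0.08 to 0.70). Bag3, an HSP70 co-chaperone, stood at 82.2 against 9.79 CPM, Hsph1 at 1439.7 against 498, and Hspa8, the constitutive HSP70, at 2328 against 1032. Hsph1 came within 2-fold against controls with other titles (0.58) and Hspa8 against GFP cells (0.24).

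The Srxn1 window (chr2:152105274-152105573, plus strand, RefSeq on GRCm38.p6, 5′ to 3′) is shown because it holds TGAGTCA, a form of the AP-1 element TGANTCA, in 2 places, in capitals:
Srxn1: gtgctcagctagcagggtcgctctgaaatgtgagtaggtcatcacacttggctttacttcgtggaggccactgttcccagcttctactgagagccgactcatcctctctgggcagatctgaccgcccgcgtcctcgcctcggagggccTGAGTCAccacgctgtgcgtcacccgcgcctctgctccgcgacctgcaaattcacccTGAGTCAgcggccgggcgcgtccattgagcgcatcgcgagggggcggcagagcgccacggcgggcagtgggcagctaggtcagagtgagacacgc
TGANTCA occurs in 5.82% of measured genes with a window, in 6.71% of those at least 2-fold higher and in 5.32% of those at least 2-fold lower. Srxn1 also holds 1 match to TGACNNNGC, the core of the antioxidant response element, which occurs in 17.3%, 15.5% and 16.7% of the same sets.

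Cell death and p53 genes were split: Perp, a p53 target, stood at 160.0 CPM with no control read (at least 3582-fold higher against the floor), with 71.5% of its reads in 5 cells, and Ccng1 (cyclin G1) stood at 40.2 against 0.968 CPM. Against GFP cells, at 39.2 CPM, Ccng1 was level (0.03). Apaf1, the scaffold of the apoptosome, was lower at 4.70 against 86.5 CPM. 11 of 32 were at least 2-fold higher and 3 lower (median 0.08, -0.09 to 0.97). Among cytokine and interferon genes 8 of 32 were at least 2-fold higher and 7 lower (median 0.21, -0.32 to 1.20). Relb stood at 24.9 against 1.21 CPM, and the chemokine Cxcl12 and the receptor Tgfbr1 were lower, at 7.94 against 93.7 and 5.37 against 53.9 CPM. Il1a, an interleukin that microglia make, had 90.7% of its day 1 reads in 5 cells and was level with microglia-rich cells left out (0.01).

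Cholesterol and fatty acid synthesis lay above all genes in all 19 alternatives (median 0.64, 0.16 to 1.10), with 14 of 38 at least 2-fold higher and 5 lower. Acsl4, which activates arachidonic acid, was read in 84.5% against 31.03% of thinned cells at 239 against 73.3 CPM. Fads2, a fatty acid desaturase, was lower at 8.82 against 37.8 CPM. Acsl4 came within 2-fold against controls with other titles (0.63) and Fads2 among cells without Y-linked reads (-0.72). Glucose metabolism had a median of 0.22 (6 and 11 of 49, 0.02 to 0.36), with the hexokinase Hk2 at 29.1 against 1.09 CPM and the mitochondrial malic enzyme Me3, one of the 15 lowest genes, at 4.91 against 129. Nuclear genes of the respiratory chain had a median of 0.36 (12 and 1 of 76), while the 11 measured genes of the mitochondrial genome had -0.89 (0 and 5). mt-Co1 stood at 576 against 1745 CPM and mt-Cytb at 753 against 1839.6. Against GFP cells the nuclear median lay on the other side of 0 (-0.10), and the mitochondrial one was -0.23, with mt-Co1 at -0.25 and mt-Cytb at -0.23.

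In the nucleus, linker and variant histones took both ends. Hist1h1c and H1f0, both linker histones, stood at 254 against 9.78 and 113.3 against 3.33 CPM, and H2afy2 (macroH2A2) at 34.6 CPM with no control read, at least 775-fold higher against the floor. GFP cells, however, had 86.9, 89.5 and 22.7 CPM of these 3. Cenpa, the centromeric histone, had no read at day 1 against 212 CPM in controls and 102.97 CPM in GFP cells, at least 32805-fold lower against the floor. Of 98 chromatin regulators 20 were at least 2-fold higher and 18 lower (median 0.02, -0.15 to 0.26). Jarid2, a partner of Polycomb complex 2, had medians of 155 and 1.85 CPM per cell, and Mbd2, which binds methylated DNA, of 1.27 and 54.1, though Mbd2 was level against GFP cells (-0.06). Splicing factors had a median of 0.00 (-0.17 to 0.25), with Hnrnpa0 higher (62.1 against 7.59 CPM) and Khdrbs3 lower (2.18 against 66.1); Hnrnpa0 was level against GFP cells (0.11). Clock genes had a median of -0.38 (4 of 22 at least 2-fold higher, 8 lower): Per3 stood at 6.51 against 35.7 CPM and Rorb at 35.7 against 0.789. Against controls with other titles that median was 0.69 and Per3 was at -0.20, and the hour of collection is not in the labels.

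The list of granule cell identity genes had the lowest median of the lists other than cell type markers. 26 of 49 were at least 2-fold lower and 6 at least 2-fold higher, and the median of -1.16 stayed below 0 in all 19 alternatives (-1.43 to -0.57). Plk5, a kinase-like protein of neurons, was read in 5.17% against 44.8% of thinned cells, and Tdo2, tryptophan dioxygenase, a granule cell marker in the mouse, in 3.45% against 27.6%. Stxbp6 stood at 142 against 339.9 CPM and Rbfox3 (NeuN) at 126.7 against 309. Stxbp6 came within 2-fold among cells with Y-linked reads (-0.29) and Rbfox3 with microglia-rich cells left out (-0.56). C1ql3, a synaptic organiser of mossy fibres, stood at 38.1 against 102.2 CPM, and among cells without Y-linked reads it was not lower (0.13). Genes of immature neurons showed no shared direction (4 of 16 at least 2-fold higher, 4 lower, median -0.25, -0.58 to 0.01).

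The 15 lowest genes by the rule above were Cenpa, Slc1a3, Palmd, Sparc, Plk5, Rab26, Me3, Cdk14, Rab21, Chrd, Kcnip2, Lcorl, Crocc, Mmd2 and Mcf2l. After thinning, a control cell had a read of a median of 7 of these 15 genes (3 to 13) and a day 1 cell of a median of 1 (0 to 7). Cdk14, a cyclin-dependent kinase of neurons, ranged from 0 to 438 CPM at day 1 (median 0) and from 0 to 1298 CPM in controls (median 149), and 12 control cells exceeded the highest day 1 cell. Mmd2, a membrane protein, had medians of 0 and 213 CPM. Rab26 and Rab21, small GTPases of vesicle transport, stood at 5.32 against 109.5 and 1.82 against 35.3 CPM. Palmd stood at 3.52 against 102.2 CPM and 96.7 CPM in GFP cells, and Mcf2l, an exchange factor for small GTPases, at 10.7, 179 and 103.5. Apart from Sparc, the other 14 were lower against GFP cells as well, the smallest in size being Lcorl (-1.88).

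By the smaller of the differences in summed and in mean CPM, the 10 genes furthest below the controls, among those the naming rule allowed, were Lars2 (described above), Ncdn, Olfm1, Fth1, Cst3, Rtn1, Itm2b, Ppp3ca, Calb1 and Prnp. Ncdn (neurochondrin), a regulator of CaMKII, ranged from 0 to 4449 CPM at day 1 (median 791) and from 505 to 9713 CPM in controls (median 4041), with 11 of 31 control cells above the highest day 1 cell. Rtn1, a reticulon, had medians of 643 and 1734 CPM, Itm2b of 468 and 1309, and Prnp, the prion protein, of 236 and 1153. Fth1, ferritin heavy chain, had medians of 1388 and 3989.9. Furthest above, after Penk and Scg2, were Arpp21, a cAMP-regulated RNA-binding protein, with medians of 2243 and 602 CPM, and Zwint with 3613 and 1285. Arpp21 had 14 of 58 day 1 cells above the highest control cell and Zwint had 7, so the ranges overlapped while the medians were apart. Both came within 2-fold in at least 1 alternative, Arpp21 against controls with other titles (0.92) and Zwint against GFP cells (0.75).

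Some genes were alike in both groups. By the rule for the smallest differences among genes of at least 100 CPM in both groups, Minos1, Aplp1, Ggnbp2, Atpif1, Arf4, Cmpk1, Sqstm1 and Atp6v0c were the nearest to level. Aplp1, an APP-like protein, stood at 1387 against 1417 CPM, Sqstm1 (p62), the autophagy receptor, at 677 against 706, and Atp6v0c, of the vacuolar proton pump, at 511 against 484. Lysosome and autophagy genes as a list had a median of -0.04 (9 of 60 at least 2-fold higher, 7 lower, -0.22 to 0.27).

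Markers of microglia, astrocytes and blood were higher in controls than at day 1 as lists, while some markers of other cells were not. Of 18 measured microglia markers 17 were at least 2-fold lower at day 1; their summed level per cell ran from 0 to 37693 CPM at day 1 (median 254) and from 0 to 30153 CPM in controls (median 2535). P2ry12, the defining receptor of resting microglia, had no read at day 1 and 197 CPM in controls, and its ratio was 0.00 with microglia-rich cells left out. P2ry12 is itself among the markers that decided which cells were left out, so that value was partly set by the choice. Cst3, which other cells make too, stood at 375 CPM at day 1, 2747 in controls and 245 with GFP, and C1qb at 195, 521 and 25.6. Both were thus higher, not lower, against GFP cells, and the median of the whole list was then 2.19. Of 8 measured astrocyte markers 6 were lower by 2-fold or more, with summed levels per cell from 0 to 1667 CPM at day 1 and from 0 to 3334 CPM in controls. Among them was Slc1a3, the glutamate transporter GLAST, at 2.20 CPM at day 1, 103.3 in controls and 61.5 with GFP, while Gfap was at 47.9 against 23.6 CPM. Blood transcripts Hbb-bs and Hba-a1 had no read at day 1 and 27.4 and 22.9 CPM in controls. The interneuron gene Gad2 stood higher at day 1, at 29.6 against 0.104 CPM, but of 2 measured interneuron markers 1 was higher and 1 lower. Summed, interneuron markers were close to level, at 691 against 675 CPM. Endothelial and mural markers in sum stood higher at day 1, at 33.1 against 1.64 CPM. CA pyramidal cell markers had a median ratio of 0.12 (4 measured), which ran from -0.99 in day 1 cells K101 to K128 to 1.46 against GFP cells. With cells of 1000 CPM or more of microglia markers left out (47 and 12 cells remain), 2778 genes were at least 2-fold higher and 1528 at least 2-fold lower; the part of other cells' RNA in single genes was not tested.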

How the data were processed

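RNA of single granule cells, drawn into a patch pipette, was sequenced after Nextera XT library preparation, per the labels' protocols. The deposited count table holds whole-number read counts per gene for 291 cells and 22800 genes; 13 labelled cells have no column and were not analysed here. A second deposited table holds a signal, the same counts multiplied by 1 factor per cell, and served as an alternative. The names of these tables say the reverse of what their values show. The submitters' processing notes name Trimmomatic, STAR, featureCounts and the genome GRCm38, with no versions. The use of strand in counting was not given in the sources used here, so overlapping genes cannot be told apart.

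Each group's counts were added up gene by gene and scaled to the group's total (CPM); log2 ratios were taken after adding 1 CPM. Reads per cell are in the report. Gene coordinates are of GENCODE vM21 on GRCm38; promoter sequences are of RefSeq on GRCm38.p6. Python 3.11.15, pandas 2.3.3, numpy 2.4.6, scipy 1.17.1, matplotlib 3.10.9 and, for TMM factors only, edgeR 4.0.16 in R 4.3.3 were used. Ratios and thinning were run on simulated counts with known folds, in which all cells of a group shared 1 profile. Such counts check the arithmetic only and hold no spread between cells.

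The labels name no animal, so a group was treated as 1 sample and no p-value was computed. No pair of cells agreed within sampling noise; the highest pairwise correlation was 0.651. Intervals at 95% are exact Poisson (CPM) or exact binomial, Clopper-Pearson (shares). They cover only the counting of reads, which carry no molecular identifiers, and the counting of cells taken as independent; neither covers the spread between animals. Genes were named by rule: 15 at each end by ratio, 10 at each end by difference in CPM and 10 by share of thinned cells, 8 nearest to level, and up to 5 with the largest ratios in each of 48 lists; genes that are predicted only, ribosomal or mitochondrial could be named from the lists alone. The report describes 177 of the 250 genes so named. Genes whose ratio changed sign over the alternatives were in part passed over in that choice, so the described genes are steadier than the rule's; the closing section gives the others. Genes, cells and lists were chosen with earlier results of these data known.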

Additional observations from a re-analysis of the deposited data

Results flagged for a closer look

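The labels also give 2 quality-passed granule cells from the side opposite to the injection at day 1, which enter no comparison. Values of the 15 highest genes and Id2 were read in them, and for 5 of these 16 genes both cells stood above every control cell; for 9 of 16 both stood above the summed control level. Npy, the neuropeptide Y precursor, was at 1623 CPM in the lower of the 2 cells and 5647 CPM in the other, against a highest control cell of 73.4 CPM. Anxa2 was at 525 and 729 CPM, with no read in any control cell. Sema3e, the guidance cue, was at 102.1 and 227 CPM, Adgrl3, the latrophilin, at 134 and 204 CPM, and Sorcs3, the sorting receptor, at 58.6 and 298 CPM. Id2 was at 396 and 149.7 CPM, within the range of control cells, and Penk at 52.7 and 2164 CPM. With 2 cells and no animal named, these are values of single cells.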

How the results depend on the processing

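The naming rule gave 250 genes, of which 232 stood at least 2-fold apart. The naming rule had already required 1 sign in the mean over cells, in thinned cells and in each set of cells by title. Only Id1 to Id4 and the genes nearest to level were named without it. A filter or another added CPM cannot turn a gene's sign, so such turns could come only from the remaining alternatives. Of the 232 genes, 29 had the other sign in at least 1 of 19 alternatives. The 164 described in the report hold 5 of these and the 68 left undescribed hold 24; 59 of the 164 and 55 of the 68 came within 2-fold or turned, so the described genes understate how far the rule's genes depend on the cells chosen. The log2 ratios of these 24 went furthest to the other sign as follows. Against GFP cells, Tubb6 went from -2.68 to 4.87, Selplg from -3.69 to 3.67, Trem2 from -4.10 to 3.04, Atg2a from 2.04 to -2.05, Ntm from 3.82 to -2.03 and Acat2 from 1.83 to -1.56. Also against GFP cells, Kat5 went from 2.20 to -1.07, Glrx from 3.31 to -1.003, Socs2 from -2.27 to 0.69, Eif2s3y from -2.83 to 0.59, mt-Co3 from -1.40 to 0.55, Yars2 from 3.36 to -0.38, Rcor1 from -1.85 to 0.26, Gabbr2 from -1.65 to 0.26 and Nars2 from 1.89 to -0.18. Among cells without Y-linked reads, Trpc1 went from -2.93 to 2.62 and Slc12a2 from -1.25 to 1.16. With microglia-rich cells left out, Nova1 went from -3.20 to 1.73, Hcn2 from -2.57 to 0.91, Ntng1 from -2.50 to 0.84, Trpm3 from -1.57 to 0.16 and Grik3 from -2.01 to 0.13. Likewise, Idh2 went from 1.72 to -0.45 with failing cells added and Gng4 from 5.57 to -0.03 among cells with Y-linked reads. Of the described genes, 5 changed sign. Against GFP cells, Tvp23a was at -0.33, Sparc at 0.14, Cst3 at 0.61 and C1qb at 2.88, and the microglia list at 2.19; among cells without Y-linked reads C1ql3 was at 0.13, and the glutamate, GABA, potassium and sodium, calcium and HCN lists at 0.59, 0.38, 0.11 and 0.17. The mossy cell list was at 2.37 against controls with other titles and 0.45 among cells with Y-linked reads. The 2 splits by Y-linked reads were chosen after seeing the data; the cause of these differences was not tested.

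The count of genes at least 2-fold higher was 3991 with no filter on low values, 1112 with a stricter one (17093 and 5778 genes entered) and 3724 among cells without Y-linked reads; the count lower was 2565 and 717 with the 2 filters. The median over all genes was 0 by construction when centred, 0.0725 with no filter, 0.0742 with GFP cells as control, 0.37 with the control cells not titled J and 0.60 among cells without Y-linked reads. Id2 was at 3.10 when centred, 3.20 with TMM factors, 3.24 in the scaled table and with 5 CPM added, 2.72 with failing cells added, 3.01 without the deepest cells, 3.51 and 2.88 against J-titled and other controls, 3.23 and 3.34 in day 1 cells K60 to K99 and K101 to K128, 3.73 against GFP cells, 5.33 without microglia-rich cells and 3.11 without Y-linked reads. Of 2108 genes at least 2-fold higher, 1346 had 1 sign in every setting, and 631 of 1376 lower ones. No paired analysis was possible because the labels name no animal and no test was run. Precision is limited by 31 control cells, of which 2 were too shallow to thin, and by a share of zeros that depth sets.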

Other observations

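The peptide genes differed between the runs of titles among day 1 cells. Penk summed to 6199 CPM in the 33 cells titled K60 to K99 and 8506 CPM in the 25 cells titled K101 to K128, Npy to 385 and 250.5 CPM, and Pdyn to 395 and 304 CPM. Id2 stood at 1212 and 1306 CPM, Sorcs3 at 433 and 701, Scg2 at 4101 and 5999.9 and Inhba at 614 and 912. The run K60 to K99 was itself mixed. Y-linked reads reached 20 CPM in 0 of 8 cells titled K60 to K74 and in 21 of 25 titled K75 to K99. Between day 1 and control cells with such reads, the Penk log2 ratio was 1.87, against 7.49 with all cells. These differences were not tested, and the labels do not say what a run of titles shares.

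Nptx2, a pentraxin that gathers AMPA receptors and was looked up after values were seen, stood at 328 against 238 CPM, a small difference in the sum, but had a read in all 58 thinned day 1 cells against 44.8% of control cells. Its control reads thus came from fewer cells. The log2 ratio was 0.46.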
